A study of Mus musculus with 28 samples.

Results

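H3K4me3 is deposited at the promoters of genes that are transcribed or poised, and H3K27me3 is laid down by Polycomb repressive complex 2 over genes kept silent, most often as broad domains over CpG-rich developmental genes. Regions that carry both marks are known from embryonic stem cells, where the pair is called bivalent, and both marks together are also found in the adult brain at genes of other lineages and at inducible genes. The regions described here were H3K4me3 peaks that lay in H3K27me3 islands in both types of striatal medium spiny neuron (MSN), the A2a and the D1 MSNs, which express the adenosine A2a and dopamine D2 receptors and the dopamine D1 receptor, respectively. A peak of the A2a H3K4me3 list on chromosomes 1 to 19 was a member when it overlapped, by at least 1 bp, an A2a H3K27me3 island and a D1 H3K4me3 peak that itself overlapped a D1 H3K27me3 island. This held for 1569 of 21819 autosomal A2a peaks (7.19%). The same rule run from the D1 side took 1638 of 19400 autosomal D1 peaks, of which 9.29% overlapped a D1 island at all. Members were thus chosen by the called positions of both marks in both neurons, and not by the height of a peak or the reads of an island.

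The nuclei came from the striatum of about 8-week-old male and female C57BL/6J mice. Each mouse carried the R26-CAG-LSL-Sun1-sfGFP allele, a green nuclear membrane tag that is read only after Cre has acted, with either A2a-cre (the A2a nuclei) or Drd1-cre (the D1 nuclei), so a nucleus is A2a or D1 by the promoter that drove Cre. Tagged nuclei were pulled out of a single striatum with an anti-GFP antibody (INTACT) and profiled by CUT&RUN (CnR), which cuts DNA next to an antibody bound to the mark. Of the 28 samples of the series, 8 made the lists used here, with 2 replicates for each cell type and mark, an Abcam antibody to H3K4me3 and an Active Motif antibody to H3K27me3. The labels of the D1 H3K27me3 samples disagree, with D1 in the title and cell type and A2a in the source name. D1 was used here, and every statement on D1 islands rests on that choice.

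Each list was called on both replicates together, so replicate error is not known for any value below, and differences of A2a from D1 could not be tested across mice. Intervals are 95% intervals of counting error only (Wilson for shares). An H3K4me3 peak has a fold enrichment at its summit over the local background of its own library and a −log10 q. Peaks were ranked by −log10 q within their list and given a percentile, from 0 for the weakest to 100. An H3K27me3 island has a length and a count of reads that is not normalized for depth. The A2a lists held 22551 peaks and 60191 islands with 22091634 reads, and the D1 lists 20080 peaks and 45760 islands with 7878685 reads. A list describes a population of nuclei, so both marks on the same nucleosomes and marks in different nuclei cannot be told apart.

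The rule itself fixes the coincidence of the marks, which is given here as a description. Of 17948 autosomal A2a peaks shared with D1, 2437 (13.6%) overlapped an A2a island and 1680 (9.36%) had a D1 peak in a D1 island. Both held for 8.74% of shared peaks. The members were 64.4% of the shared peaks in an A2a island and 93.4% of those in a D1 island. A further 868 shared peaks had an island in A2a alone and 111 in D1 alone, and 15400 had none. At the edge of the rule, the members with the smallest overlap were at *Hcn4*, *E130114P18Rik* and *Mcidas*, with 11, 12 and 14 bp of the D1 peak in an island. The nearest peaks outside it were at *Kirrel*, which touched a D1 island without overlap, and at *Slc39a8* and *Gm26721*, which missed one by 12 and 31 bp. Only 52 members had under 200 bp of a peak in an island in either list, and 21 shared peaks missed the rule by under 200 bp.

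Sequence is shown for high-ranked members of both lists and for members at genes that distinguish the MSN types or respond to activity, so that CpG-rich and CpG-poor members can be seen side by side. Each run is 300 bp of GRCm38 around the A2a summit, read on the plus strand from the RefSeq copy of the genome, with every CpG in capitals. The first 4 follow a ranking by the lower of the A2a and D1 percentiles. The other 5 were chosen after their values were seen.
Sh3gl2 (endophilin A1, chr4:85205646-85205945, 23 CpG): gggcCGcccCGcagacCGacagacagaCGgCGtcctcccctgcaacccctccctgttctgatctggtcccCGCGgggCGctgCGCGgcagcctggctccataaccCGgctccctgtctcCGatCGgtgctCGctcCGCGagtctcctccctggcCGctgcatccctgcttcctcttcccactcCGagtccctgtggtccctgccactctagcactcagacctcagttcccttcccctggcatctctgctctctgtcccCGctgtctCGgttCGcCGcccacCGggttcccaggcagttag
Nkain3 (a partner of the sodium pump, chr4:20777869-20778168, 19 CpG): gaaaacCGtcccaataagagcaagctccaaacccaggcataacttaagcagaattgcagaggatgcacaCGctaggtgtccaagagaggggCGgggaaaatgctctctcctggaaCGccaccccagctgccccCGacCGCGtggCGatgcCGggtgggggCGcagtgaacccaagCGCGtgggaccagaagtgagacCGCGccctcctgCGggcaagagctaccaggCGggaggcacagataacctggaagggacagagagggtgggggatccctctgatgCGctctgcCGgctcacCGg
Trim59 (a tripartite motif protein, chr3:69044810-69045109, 36 CpG): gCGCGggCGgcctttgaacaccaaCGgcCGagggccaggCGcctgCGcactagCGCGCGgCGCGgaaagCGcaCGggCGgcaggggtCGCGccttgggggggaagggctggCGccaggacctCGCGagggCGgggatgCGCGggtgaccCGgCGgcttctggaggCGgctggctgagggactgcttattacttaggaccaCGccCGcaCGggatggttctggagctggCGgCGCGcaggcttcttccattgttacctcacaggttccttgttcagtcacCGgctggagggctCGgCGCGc
Mme (neprilysin, chr3:63296423-63296722, 8 CpG): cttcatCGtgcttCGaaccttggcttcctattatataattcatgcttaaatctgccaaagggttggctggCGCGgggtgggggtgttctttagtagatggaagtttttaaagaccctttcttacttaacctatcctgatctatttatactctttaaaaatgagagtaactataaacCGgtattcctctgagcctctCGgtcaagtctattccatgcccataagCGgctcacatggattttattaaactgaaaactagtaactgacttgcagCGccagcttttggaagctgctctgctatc
Drd1 (dopamine D1 receptor, chr13:54054708-54055007, 5 CpG): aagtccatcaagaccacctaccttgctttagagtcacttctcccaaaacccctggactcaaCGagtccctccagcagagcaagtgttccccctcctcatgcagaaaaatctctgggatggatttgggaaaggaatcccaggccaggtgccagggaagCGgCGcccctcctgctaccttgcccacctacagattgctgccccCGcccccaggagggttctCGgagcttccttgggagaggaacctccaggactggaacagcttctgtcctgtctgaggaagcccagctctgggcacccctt
Isl1 (LIM homeodomain factor of D1 neurons, chr13:116310025-116310324, 21 CpG): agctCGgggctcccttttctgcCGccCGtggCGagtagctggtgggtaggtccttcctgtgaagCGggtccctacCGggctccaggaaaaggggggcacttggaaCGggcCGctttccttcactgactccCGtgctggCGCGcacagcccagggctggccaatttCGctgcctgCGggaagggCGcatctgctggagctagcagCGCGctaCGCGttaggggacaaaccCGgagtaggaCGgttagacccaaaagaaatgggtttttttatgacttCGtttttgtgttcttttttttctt
Tac1 (substance P precursor, chr6:7555738-7556037, 10 CpG): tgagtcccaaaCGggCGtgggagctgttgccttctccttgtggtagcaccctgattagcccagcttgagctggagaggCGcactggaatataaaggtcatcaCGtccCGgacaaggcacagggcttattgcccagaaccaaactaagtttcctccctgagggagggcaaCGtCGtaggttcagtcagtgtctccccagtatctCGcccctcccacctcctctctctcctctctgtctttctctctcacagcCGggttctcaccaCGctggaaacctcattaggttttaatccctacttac
Penk (enkephalin precursor, chr4:4137342-4137641, 2 CpG): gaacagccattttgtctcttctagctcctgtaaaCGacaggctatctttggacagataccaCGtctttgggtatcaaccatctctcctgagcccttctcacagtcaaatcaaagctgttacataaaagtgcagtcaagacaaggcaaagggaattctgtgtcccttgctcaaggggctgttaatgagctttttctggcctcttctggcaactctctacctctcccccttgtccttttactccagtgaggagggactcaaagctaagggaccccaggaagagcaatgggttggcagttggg
Nr4a2 (an inducible nuclear receptor, chr2:57123374-57123673, 23 CpG): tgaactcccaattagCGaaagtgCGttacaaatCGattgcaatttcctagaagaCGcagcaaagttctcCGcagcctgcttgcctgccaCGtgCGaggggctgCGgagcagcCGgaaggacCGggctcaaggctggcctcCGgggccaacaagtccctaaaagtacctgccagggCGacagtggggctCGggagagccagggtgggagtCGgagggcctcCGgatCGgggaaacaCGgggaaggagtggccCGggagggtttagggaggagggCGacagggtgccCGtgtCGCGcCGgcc

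These windows ran from below the 10th to above the 90th percentile of CpG content among members. *Trim59* had more CpG sites than the 90th percentile of members, 33, and *Penk* and *Drd1* had fewer than the 10th percentile, 6. The member median was 17 CpG sites per 300 bp, against 13 at shared peaks without an island and 11 at all autosomal A2a peaks. GC content had medians of 60.3%, 57.0% and 55.7% in the same order. A window was counted as CpG-rich when GC was at least 50% and the observed to expected CpG ratio at least 0.6. This held for 888 members (56.6%, 54.1 to 59.0), for 45.2% of shared peaks without an island and for 40.1% of all peaks. The difference was larger outside the promoters of protein-coding genes. At promoters of protein-coding genes 67.2% of members and 63.3% of shared peaks without an island were CpG-rich, while elsewhere the shares were 37.0% (33.1 to 41.1) and 18.6% (17.6 to 19.6). These other places still held other transcript starts of protein-coding genes (164 of 551 members and 1382 of 6238 shared peaks without an island). They also held promoters of other annotated genes (110 and 944). Only 3 members had no CpG in the window.

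**Figure D1:**
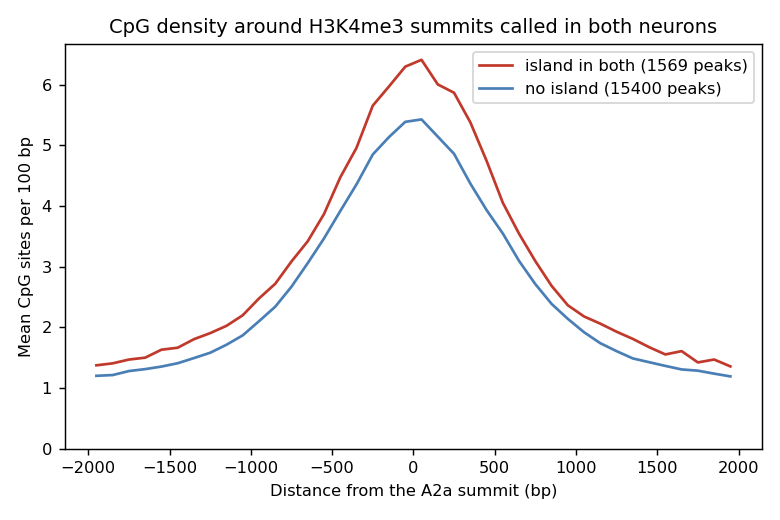
Mean number of CpG sites per 100 bp (vertical axis) against the distance from the A2a H3K4me3 summit in bp (horizontal axis), for 1569 members (red) and 15400 shared peaks without an island (blue). Members peaked at 6.41 CpG sites per 100 bp next to the summit against 5.43, and both curves fell below 1.5 at 1950 bp.

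A set of 8 short motifs were looked for in the same windows on either strand, and a match is a description of letters, not of a bound site. GGGCGG, the GC box read by Sp factors, was in 628 members (40.0%, 37.6 to 42.5) against 32.9% of all autosomal A2a windows and 36.2% of shared peaks without an island. CAGCTG, an E-box of neural bHLH factors, was in 20.4% of members (18.5 to 22.5) against 17.7% of all windows. Other motifs were less frequent in members. TAATTA, the homeodomain core, was in 2.74% against 4.69% of all windows, CACGTG (the Myc type of E-box) in 4.27% against 5.90%, TATAAA (the TATA box) in 6.18% against 8.45% and CCAAT in 22.8% against 27.04%. The interval of TGACGTCA, the cAMP response element (0.574%, 0.302 to 1.09), held the share in all windows, 0.843%, and that of CTTCC, the Ets core (69.6%, 67.3 to 71.8), ended just below it, 72.1%. At protein-coding promoters alone, GGGCGG was in 46.2% of members and 46.3% of shared peaks without an island and TATAAA in 4.42% and 4.58%, while CAGCTG was in 19.9% (17.6 to 22.5) and 15.1%, CACGTG in 3.73% (2.73 to 5.08) and 6.42% and CCAAT in 20.2% (17.9 to 22.8) and 26.0%. Elsewhere GGGCGG was in 28.7% (25.1 to 32.6) and 21.2%. GGGCGG holds a CpG and TAATTA and TATAAA hold none, and CpG content differed between the sets, so its part in these shares was not tested.

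Members were mostly promoters. Of the 1569, 1018 (64.9%, 62.5 to 67.2) overlapped the promoter of a protein-coding gene, taken as 2 kb upstream to 1 kb downstream of its 5′ end in GENCODE vM21, against 59.5% of shared peaks without an island. Another 164 (10.5%) lay at another transcript start of a protein-coding gene and 110 (7.01%) at the promoter of another annotated gene. The remaining members lay inside a protein-coding gene (91, 5.80%, against 12.4% of shared peaks without an island) or outside these (186, 11.9%). By chromosome, members were from 3.53% of A2a peaks on chromosome 17 to 11.1% on chromosome 3. Summits over 5 kb from any transcript start made up 13.3% of members (11.7 to 15.1) and 20.1% of shared peaks without an island. The members farthest from a start were 251 kb from the nearest one at *Zfhx3*, 171 kb at *Gm35430*, 149 kb at *Gm49667*, 147 kb at *Chst9* and 140 kb at *Gm23432*, and the *Gm49667* member ranked high all the same, at percentiles 87.2 in A2a and 66.4 in D1.

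Within the islands, members sat inside rather than at the border. The A2a peak lay wholly in A2a islands for 1427 members (90.9%), the D1 peak wholly in D1 islands for 1253 (79.9%), and both for 1203 (76.7%, 74.5 to 78.7). Both summits were in islands for 1407 members and neither for 24. The A2a and D1 islands of a member overlapped each other for 1562 of 1569. Members were in some of the longest islands, although a longer island is also more likely to meet a peak by the rule. The 1477 A2a islands with a member had a median length of 8.6 kb and 793 reads, against 3.4 kb and 205 reads for islands without a peak. Density was 89.7 reads per kb against 62.1. In between, the 1589 A2a islands with another peak had medians of 4800 bp, 328 reads and 69.4 reads per kb. A member also needs an island in the other neuron, which islands without a peak need not have. The part of this in the lengths, reads and densities was not tested in either neuron. For D1 islands, the members counted are the 1638 D1 peaks that met the rule from the D1 side. In D1 the 1497 islands with a member had medians of 5.6 kb, 263 reads and 47.9 reads per kb, against 3.0 kb, 102 reads and 37.0 per kb. The 141 D1 islands with another peak had medians of 3.4 kb, 116 reads and 39.5 reads per kb. Of the 1197 A2a islands of at least 20 kb 239 (19.97%) held a member, against 2.48% of all autosomal A2a islands, and of 493 such D1 islands 111 (22.5%), against 3.29%.

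Most islands held a single member. In A2a, 86 islands held at least 2 and in D1, where D1 peaks were counted as members, 134. The A2a island with the most was 108 kb long over *Zeb2*, a zinc finger repressor of interneuron and glial development, with 4 members whose A2a percentiles ran from 17.1 to 41.2 and D1 percentiles from 0.64 to 28.2. Islands with 3 members each covered *Nr2f1*, an orphan nuclear receptor (51.4 kb), *Nr4a2* (42.0 kb), the neurotrophin gene *Bdnf* (47.2 kb) and *Zfp521* (33.2 kb). In D1, a 36.2 kb island over the stem cell factor gene *Sox2* held 4, and islands over *Nr4a2* (43.2 kb), *Nxph1* (43.0 kb), *Zeb2* (54.0 kb) and *Bdnf* (30.6 kb) held 3. The islands with the most reads around a member were those of *Smyd2*, whose 194.2 kb A2a island held 19931 reads, of *Hoxa7* (68.4 kb, 13923 reads), of *Gng2* (100.8 kb, 16870 reads), of *Efr3a* (63.0 kb, 12234 reads) and of a peak nearest to *Pax3* (101.8 kb, 16894 reads). The D1 islands there held 6827, 7064, 6555, 7350 and 7338 reads. In D1 the list of 5 held *Ptprk* (85.0 kb, 6630 reads) in place of *Gng2*. By −log10 q the highest of these 6 members in A2a, at *Ptprk*, was at percentile 50.9, while by fold enrichment the highest, at *Hoxa7*, reached 11.3.

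The H3K4me3 of members was weaker than that of other shared peaks in both neurons. The median percentile was 40.4 (interval of the median 39.7 to 41.2) in A2a and 29.8 (28.5 to 30.8) in D1, against 63.3 and 59.0 for shared peaks without an island and 47.1 and 39.8 for shared peaks with an A2a island alone. Median fold enrichments were 6.76 in A2a and 5.27 in D1 for members and 7.42 and 6.85 for shared peaks without an island. Median lengths were 1253 bp in A2a and 921 bp in D1, against 1400 and 1280 bp for shared peaks without an island. Shared peaks with an A2a island alone had a median A2a length of 1258 bp, close to that of members, and a D1 length of 1064 bp. In both lists at once, 31 members (1.98%) were in the top 25% of the list against 25.7% of shared peaks without an island, whereas 197 (12.6%) and 10.1% were in the bottom 25%. Members were therefore spread over the middle and lower ranks, and their spread was wide. From the 10th to the 90th percentile of members, the A2a length ran from 603 to 2093 bp and the A2a fold enrichment from 4.15 to 9.47.

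**Figure D2:**
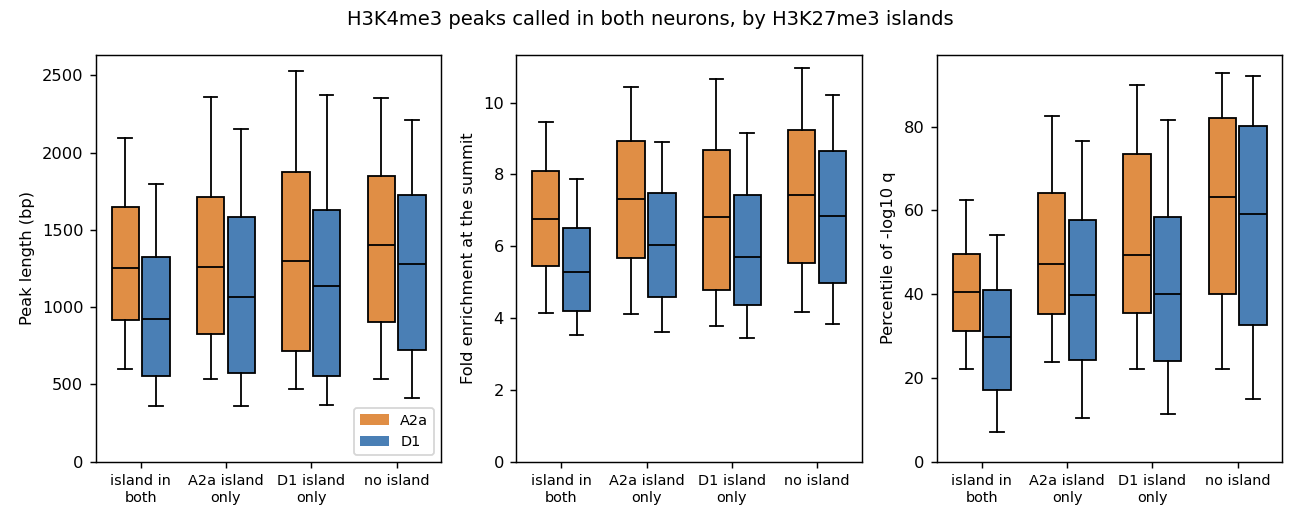
Peak length in bp, fold enrichment at the summit and percentile of −log10 q (vertical axes) for shared H3K4me3 peaks with an island in both neurons (the 1569 members), in A2a only (868), in D1 only (111) or in neither (15400). Boxes span the 25th to 75th percentile over peaks with the median as a line, whiskers the 10th to 90th, in A2a (orange) and D1 (blue), and members had the lowest median percentile in both lists.

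A small set of members ranked with the strongest peaks of both lists. At *Tcp11l2* the fold enrichment reached 14.4 (A2a) and 15.2 (D1), at percentiles 99.95 and 99.93, within islands of 26.8 and 6.2 kb. The member at *Nkain3* was at percentiles 99.1 and 90.8 and that at *Sh3gl2*, which encodes a protein of synaptic vesicle recycling, at 93.3 and 93.3. *Mme*, the gene of the peptidase neprilysin, had a member at percentiles 85.8 and 92.3. At *Nkain3* and *Sh3gl2* the island covered only 3.70% and 20.6% of the D1 peak, and at *Trim59* it covered 10.1% of the A2a peak, while the *Tcp11l2* peaks lay wholly in islands in both. The remaining members of the top 6 in A2a were at *Chrm3* (a muscarinic receptor), *Dlx5*, *Col19a1* and *Inava*, at percentiles 98.4, 97.5, 96.8 and 96.2. In D1 they were at *Ppm1l* and near *Gm11809*, at percentiles 98.1 and 97.2.

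Members tended to be larger in the A2a list, and so did shared peaks without an island. The study reports greater signal of both marks in peaks in A2a than in D1 and hypothesizes technical sources rather than biological variation. The lists used here are not normalized to each other, and members ranked lower in both lists than shared peaks without an island. The part of these in the shares below was not tested. The A2a peak was the longer one for 1348 members (85.9%), against 77.7% of shared peaks without an island, and had the higher fold enrichment for 83.7%, against 64.6%. The median length ratio, A2a over D1, was 1.23 against 1.07. The percentile in the whole list was higher in A2a for 91.1% against 68.6%, with a median gap of 11.1 points against 4.85. The A2a list held 3871 autosomal peaks without a D1 peak, which enter the whole-list percentiles. Ranked among shared peaks alone, the median gap of members was 3.56 points (3.10 to 4.02), and that of shared peaks without an island 0.03. The call rate for large gaps followed the ranking. By whole-list percentiles 99 members (6.31%; 2.37% of all shared peaks) were at least 25 points higher in A2a and 8 (0.510%; 0.925% of all shared peaks) at least 25 points higher in D1. Among shared peaks the counts were 15 (0.956%; 0.947% of all shared peaks) and 13 (0.829%; 2.27% of all shared peaks).

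**Figure D3:**
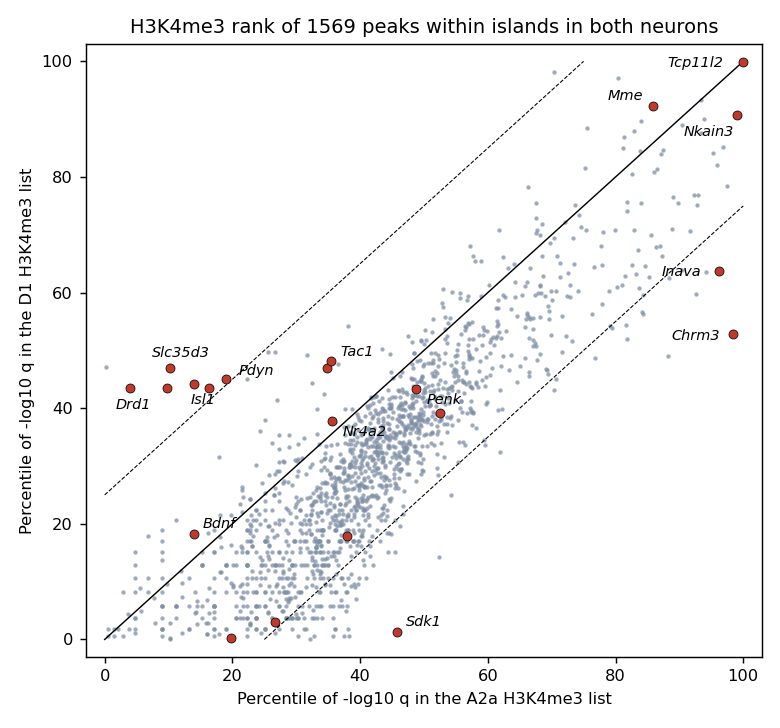
Percentile of −log10 q in the D1 H3K4me3 list (vertical axis) against that in the A2a list (horizontal axis) for the 1569 members, 1 point each. The solid line marks equal percentiles and the dashed lines a gap of 25 points, and red points are all members at the genes named, with *Drd1*, *Isl1*, *Pdyn* and *Slc35d3* above and *Chrm3*, *Sdk1* and *Inava* below.

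The 8 members with the higher D1 rank lay at 6 D1 peaks, and 4 of these were at *Drd1*, *Pdyn*, *Isl1* and *Slc35d3*. *Drd1*, the receptor gene that defines D1 MSNs and drives Cre in the D1 line, had a single D1 peak of 2484 bp (chr13:54052817-54055300) at percentile 43.6. Under it the A2a list held 3 separate peaks of 319, 786 and 423 bp at percentiles 16.3, 9.77 and 4.04. The A2a peak of *Isl1* was at percentile 14.0 and the D1 peak at 44.1. *Pdyn*, the gene of the dynorphin precursor and a D1 marker, was at 19.1 in A2a and 45.1 in D1. *Slc35d3*, whose product takes part in D1 receptor trafficking, had 2 A2a peaks at percentiles 10.2 and 34.8 under 1 D1 peak of 3282 bp at 47.0. Fold enrichment went the other way at *Isl1*, 3.68 in A2a and 2.68 in D1. It was higher in D1 at *Pdyn* (5.08 and 5.96), at the promoter member of *Drd1* (2.57 and 3.27) and at the lower-ranked *Slc35d3* member (2.88 and 3.54). The count of 8 rests on the rule's 1 bp overlap, and was 4 with at least 50% of each peak in islands, 3 with islands of at least 2 kb, which leaves out the D1 islands of *Drd1*, *Pdyn* and *Ppm1l*, and 4 with equal numbers of peaks and islands in both neurons. The other members were nearest to *Gm47914*, on chromosome 13 like *Isl1* (0.17 and 47.1), and at *Ppm1l* (70.3 and 98.1).

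At all 8 of these members the A2a island was at least 2 times as long as the D1 island, against 460 of all 1569 members (29.3%; 25.4% of all overlapping island pairs). The ratio had a median of 9.33 over the 8 and ran from 2.71 to 39.6. Of the 13 members with the higher D1 rank among shared peaks, 12 had an A2a island at least 2 times as long. These members shared D1 peaks and islands (3 of the 8 were at *Drd1*), so they are not 8 independent regions. At *Drd1* the A2a island was 16.8 kb with 1958 reads and the D1 island 1.8 kb with 86 reads, and 44.3% of the D1 peak lay in it. At *Pdyn* the lengths were 39.6 and 1.0 kb with 4641 and 50 reads, at *Isl1* 31.2 and 5.8 kb with 6620 and 229 reads, and at *Slc35d3* 60.2 and 4.6 kb with 8792 and 154 reads. *Tac1*, another D1 neuropeptide gene, had islands of 61.0 kb (9144 reads) and 2.8 kb (121 reads) and percentiles of 35.4 in A2a and 48.1 in D1. Its fold enrichment was higher in A2a (4.88) than in D1 (4.08). Over all members the medians were close, apart from the most uneven islands. The median percentile gap among shared peaks was 3.26 points for the 460 members with the longer A2a island, 3.85 for the 42 with an island at least 2 times as long in D1 and 3.79 for the other 1067. For the 25 members whose A2a island was at least 10 times as long, which include *Pdyn*, *Tac1* and *Slc35d3*, it was -0.58, and 48.0% of them ranked higher in A2a, against 69.9% of the 1067. These 25 members were at or nearest to 22 genes, and those at *Pdyn* and *Slc35d3* are also among the genes of the 8 above. Each ratio takes the island with the most reads under the peak on each side, so a domain called in pieces counts as 1 piece. At *Ikzf1* the same 16.2 kb A2a island was set against 1.2 kb (66 reads) in D1 at 1 member and 6.2 kb (297 reads) at another. The D1 islands at *Pdyn* and *Sox1* were at percentiles 2.04 and 0.65 by reads. For the 13 members (11 genes) with an island at least 4 times as long in D1, the median gap was 8.48 points and 69.2% ranked higher in A2a. The cuts of 10 and 4 were not set in advance.

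On the other side, the largest A2a gaps were at *Chrm3* (98.4 and 52.8), *Sdk1*, a synaptic adhesion gene (45.8 and 1.31), *Trpc4*, a cation channel gene (88.3 and 49.0), *Pcsk6*, a proprotein convertase gene (52.4 and 14.3), and *Ifnlr1* (38.3 and 0.64). Their islands were 0.59 to 5.32 times as long in A2a as in D1. *Chrm3* had 6.6 kb in A2a and 11.2 kb in D1, *Trpc4* 4.4 and 5.6 kb, *Sdk1* 11.4 and 6.0 kb, *Ifnlr1* 7.0 and 3.6 kb, and *Pcsk6* 23.4 and 4.4 kb. Over the 99 members higher in A2a by whole-list rank, 21 (21.2%; 29.3% of all members) had an island at least 2 times as long in A2a. An island at least 2 times as long in D1 was at 3 of them (3.03%; 2.68% of all members).

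Islands at least 2 times as long in D1 were at 42 members (2.68%, 1.99 to 3.60), beside 8.59% of all overlapping island pairs. The most uneven, named after their values were seen, were at *Htr4*, a serotonin receptor gene with 2 members (5.8 kb in A2a and 46.8 kb in D1), at the kainate receptor gene *Grik3* (4.6 and 35.8 kb), and at *Penk*, the A2a marker (3.4 and 23.8 kb, 200 and 1365 reads). The percentiles at *Penk* were 48.7 in A2a and 43.3 in D1, at *Grik3* 68.2 and 49.3, and at the 2 *Htr4* members 61.6 and 59.7 in A2a and 39.7 and 40.7 in D1. Ranked among shared peaks, the gap (A2a minus D1) at *Penk* was -1.44, against 15.3 at *Grik3* and 17.2 and 14.0 at *Htr4*. Fold enrichment at *Penk* was 3.06 in A2a and 3.67 in D1. *Sp9*, a factor of A2a MSN development, had 2 members in islands of 9.4 and 21.2 kb, with percentiles of 61.9 and 59.5 in A2a and 32.4 and 33.6 in D1. In the opposite direction, the ratio reached 83.6 at *Tbxas1* (83.6 and 1.0 kb), 31.5 at *Sox1* (25.2 and 0.8 kb) and 29.7 at *Dscam* (41.6 and 1.4 kb). Read totals differ between the lists, and 1522 members (97.0%) had more reads in the A2a island. By rank of reads within each list, 232 members (14.8%; 20.4% of all overlapping pairs) were at least 25 points higher in A2a and 41 (2.61%; 13.5%) in D1. Every share of all overlapping pairs counts 1 pair for each A2a island, with the D1 island of most reads. A long D1 island over several A2a islands thus enters several times. Members are peaks, so the shares of members and of pairs are not of like units.

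**Figure D4:**
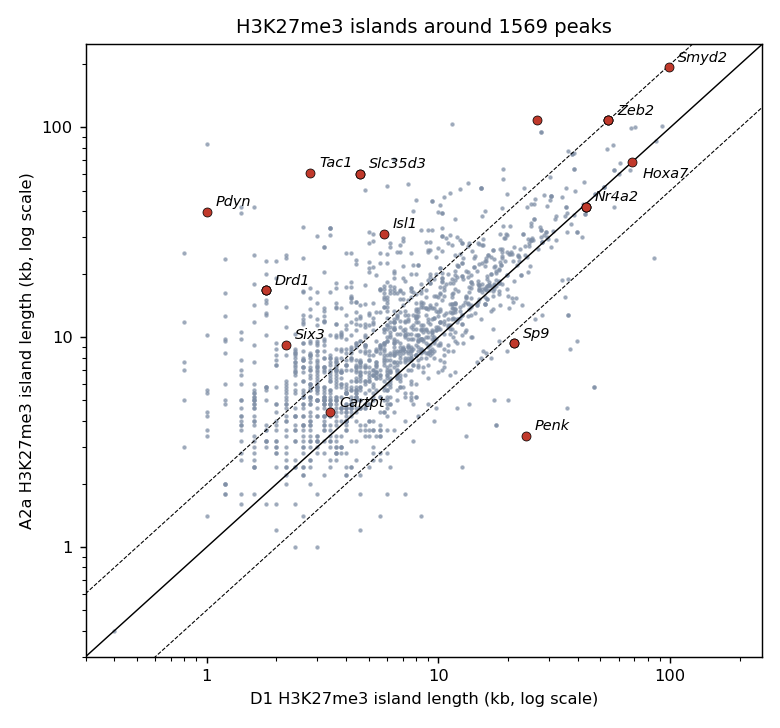
Length of the A2a H3K27me3 island (vertical axis, kb, log scale) against the D1 island (horizontal axis, kb, log scale) at each of the 1569 members. The solid line marks equal lengths and the dashed lines a ratio of 2, and red points are all members at the genes named, with *Pdyn*, *Tac1*, *Slc35d3*, *Isl1* and *Drd1* on the A2a side and *Penk* and *Sp9* on the D1 side.

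The cell type labels can be read from the same markers. Of the A2a markers, *Penk* was a member, *Adora2a* had peaks in both lists (percentiles 90.6 and 53.4) and a D1 island of 45.0 kb and none in A2a, and *Drd2* had islands in both (2.6 and 7.8 kb) that its peaks did not meet in the way the rule asks. The D1 markers *Drd1*, *Pdyn* and *Tac1* were all members. Markers of both types behaved differently, since *Ppp1r1b*, *Bcl11b* and *Rgs9* had peaks in both lists and no island, and *Gad1* had neither mark at its annotated 5′ end.

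Members touched the promoters of 1032 of 20807 autosomal protein-coding genes (4.96%). An island of both lists was at 3069 promoters (14.7%) and a peak of both at 11788 (56.7%). Among the 3069 genes with islands in both, 1632 (53.2%) had no H3K4me3 peak in either list and 1015 (33.1%) had a member. The other 17 genes with a member had no island of both lists over the promoter window itself, so in the lists below a gene can have a member and not count among those with islands. The gene lists are read against these shares. None was tested.

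Among developmental transcription factor families, all 39 Hox genes had islands in both lists, 37 had no peak and 1, *Hoxa7*, had a member. All 12 Lhx, Isl and Lmx genes had islands, 10 no peak and 1, *Isl1*, a member. The Nkx list (14 genes) had 13 with islands, 9 of them without a peak and 2 with a member (*Nkx6-2* among them), the Tbx, Gata and Gli list (26) had 23, 20 and 2 (*Gli2* and *Gli3*), and the Fox list (30) 17, 13 and 0. In the Pax, Eya and sine oculis homeobox list (19) the counts were 17, 12 and 4 (*Eya1*, *Six3*, *Eya4* and *Six4*). Of 21 Dlx, Emx, Otx, Irx and Meis genes 17 had islands, 7 of them no peak, and 9 had a member, namely *Dlx1*, *Dlx2*, *Dlx5*, *Dlx6*, *Meis1*, *Irx5*, *Otx1*, *Emx1* and *Emx2*. *Dlx5* had the highest ranks of these, 97.5 in A2a and 78.4 in D1, with islands of 17.2 and 2.8 kb, and *Dlx2* was at 53.6 and 43.3 with islands of 29 and 25 kb. Of 18 Sox genes 10 had islands, 4 of them no peak, and 7 had a member, among them *Sox5*, *Sox2* and *Sox1*. Of 33 neural bHLH genes 25 had islands, 13 of them no peak, and 11 had a member, with *Hey2*, a Notch target, at percentiles 61.8 and 70.8.

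Signalling and adhesion genes gave the next groups. Of 52 Wnt, Fgf, Bmp and hedgehog ligand genes 32 had islands, 20 of them no peak, and 10 had a member, *Fgf3* (87.0 and 68.1), *Shh* (69.5 and 55.5) and *Bmp7* (51.1 and 34.1) being the highest. Receptors and inhibitors of the same pathways (33 genes) had 21 with islands, 5 of them without a peak, and 14 with a member, led by *Fzd1* (84.6 and 64.6), *Chrd* (84.2 and 56.7) and *Fzd8* (66.5 and 55.8). Of 61 axon guidance genes, 55 (90.2%) had a peak of both lists, against 56.7% of all genes. In this list 14 had islands in both, every one of these had a peak in at least 1 list, and 13 had a member. The highest were the ephrin receptor gene *Epha3* (84.0 and 89.7), the netrin receptor gene *Unc5d* (69.9 and 52.6) and *Sema5a* (61.4 and 52.5). Collagen and laminin genes (50) had 32 with islands, 17 of them without a peak, and 12 with a member, with *Col19a1* (96.8 and 85.2) and *Col11a1* (51.3 and 44.0) ranked highest.

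Among neuronal genes, the lists differed in how many islands came without a peak. They also differed in how often a gene had a peak of both lists. This held for 84.6% of potassium channel, 32.5% of neuropeptide, 92.3% of immediate early and 81.8% of striatal projection neuron genes (56.7% of all). The part of these shares in the counts was not tested. Of 39 voltage-gated potassium channel genes 8 had islands, 2 of them no peak, and 5 had a member, with *Kcnh8* (72.5 and 63.4), *Kcns3* and *Kcnc2* first. Of 40 neuropeptide genes 27 had islands, 17 of them no peak, and 10 had a member. These were *Penk*, *Tac1*, *Pdyn*, *Cartpt* (35.3 and 20.2), *Cck* (33.3 and 39.9), *Prok2*, *Nts*, *Crh*, *Nxph1* and *Calca*. All 4 immediate early genes with islands, of 26 in the list, had a member. They were the phosphatase gene *Dusp4* (68.6 and 62.8), *Nr4a2* (52.5 and 39.2 at the highest of its 3 members), *Ier2* (39.5 and 24.3) and *Bdnf*, whose 3 members had A2a percentiles of 14.0, 19.9 and 26.7 and D1 percentiles of 18.3, 0.21 and 2.97. Among 33 striatal projection neuron genes 12 had islands, none of these lacked a peak, and 10 had a member: *Eya1* (57.3 and 68.1), *Ikzf2* (65.9 and 55.5), *Ikzf1*, *Sp9*, *Penk*, *Tac1*, *Six3*, *Pdyn*, *Isl1* and *Drd1*.

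Markers of other cells that an INTACT preparation could hold were also among the members. Of 17 oligodendrocyte markers 11 had islands, 4 of them no peak, and 3 a member (*Ugt8a*, *Olig1* and *Olig2*), and 6 of the 17 had a peak in both lists. Astrocyte markers (14) had 7 with islands, 7 with a peak in both lists and 4 with a member (*Sox9*, *Slc1a3*, *Gja1* and *Fgfr3*). Microglia markers (16) had 5, 3 and 1, and interneuron markers (20) had 18, 4 and 4 (*Reln*, *Cck*, *Prox1* and *Gbx1*). At *Olig2* the peaks were at percentile 26.7 in A2a and 1.13 in D1 within islands of 36.6 and 31.8 kb, and at *Gja1* at 30.0 and 4.46 within islands of 25.6 and 20.6 kb. The part of such cells in these peaks was not tested. Of 29 autosomal Polycomb genes 4 had islands and 1, *Cbx8*, a member, and of 73 cytosolic ribosomal protein genes, which are expressed in every cell, 1 had islands and none a member.

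**Figure D5:**
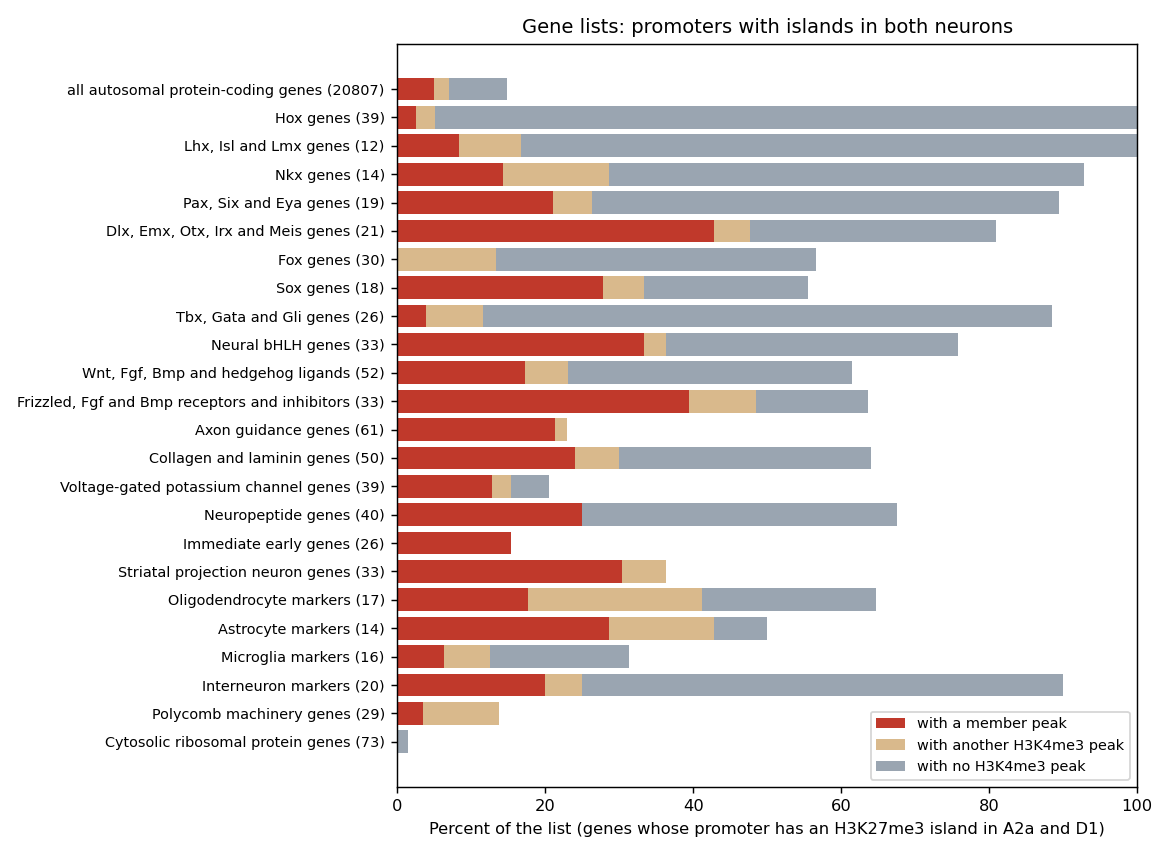
Share of each gene list, in percent of the genes found (their number in brackets), whose promoter had H3K27me3 islands in both A2a and D1, split into genes with a member (red), with another H3K4me3 peak (tan) and with no peak in either list (grey). Among all 20807 genes 14.7% had islands in both, against 39 of 39 Hox genes, most of them without a peak, and 14 of 61 axon guidance genes, none without one.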

How the data were processed

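CnR libraries of H3K4me3 and H3K27me3 from A2a and D1 nuclei were analysed as the lists that the authors deposited, each called on 2 pooled replicates. The authors demultiplexed with bcl2fastq2 (2.20.0.422), mapped reads to mm10 (GRCm38) with bowtie2 (2.1.0), kept a mapping quality of at least 20 with samtools (0.1.19), removed duplicates with Picard (2.23.4) and kept inserts of 150 to 500 bp. For H3K4me3 the authors ran MACS2 (2.2.7.1) at q 0.01. The deposited peaks hold a ratio to the local background (fold enrichment) and a −log10 of the q-value. For H3K27me3 the authors ran SICER (2.0; window 200 bp, gap 600 bp, false discovery rate 0.01) against a control whose name is not given in the sources used here. The deposited value of islands is a count of reads, not normalized. Library totals are not part of the lists, and the study gives depth only as a range over its samples, so depth per library could not be set beside the values. The 20 samples outside these lists were not analysed here.

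Overlap was at least 1 bp and coordinates are counted from 1. Genes came from GENCODE vM21. Where several D1 peaks met the rule for a member, the strongest was used. Shares have Wilson intervals (95%) and medians order-statistic intervals, both of counting error. The classification was tested on simulated data. Members, gene lists and motifs were chosen with earlier results of these data known. Named are the 6 strongest members per list, the 5 largest percentile gaps each way, the 5 islands per list with the most members and with the most reads, up to 3 genes per gene list, the 5 members farthest from a start, the markers, the genes the study names and the edges of the rule. Sequences from chromosome 18 and annotated UTRs were left out. Some genes that this rule takes are not reported here. Other names were chosen after their values were seen. Values were recomputed under 12 other settings listed at the outset and 2 added after seeing the data. Python (3.11.15), numpy (2.4.6), scipy (1.17.1), pandas (2.3.3) and matplotlib (3.10.9) were used.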

Additional observations from a re-analysis of the deposited data

Results flagged for a closer look

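Chromosome X was outside the rule. Of 694 A2a H3K4me3 peaks there, 572 were shared with D1, 62 overlapped an A2a island, and 22 met the same rule as the members, or 3.17% against 7.19% on the autosomes. They drew attention because they carry the same pair of marks in peaks outside the sets compared above. Peaks and islands of chromosome X entered those comparisons only through the whole-list percentiles, which rank every chromosome. Male and female mice were used, the sex behind each pooled list is not given in the sources used here, and its part in these values was not tested.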

How the results depend on the processing

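The 14 results were recomputed under up to 12 other settings listed at the outset and 2 added after seeing the data, which gave 110 values, 99 of them within 1.5 times the main count or within the interval of the main median or share. The number of members at protein-coding promoters, member genes, islands with at least 2 members, CpG content and the D1-side count were among those that stayed within these limits under every alternative run. The median A2a percentile, 40.4, was 39.5 when both summits, or at least 50% of each peak, had to be in islands. With peaks of −log10 q of at least 5 it was 42.1, the median length 1300 bp and the median fold enrichment 6.97. The count of members at least 25 percentile points higher in A2a, 99, was 57 at −log10 q of at least 5 and 15 with ranks among shared peaks. The count higher in D1, 8, was 4 with at least 50% of each peak in islands, 3 with islands of at least 2 kb, 4 with equal numbers of peaks and islands in both neurons, and 13 with ranks among shared peaks. The cause of these shifts was not tested. No paired analysis was possible because each list pools its replicates, and for the same reason no replicate could be left out. The weakest peaks and shortest islands are limited by depth, which the lists do not give.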
